A study of Mus musculus with 21 samples.

Results

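Accessible chromatin was followed over 38 protein-coding Hox genes in the Hoxa, Hoxb, Hoxc and Hoxd clusters, out of 21883 protein-coding genes annotated on mm10. The members were taken by name: 10 genes in Hoxa (chromosome 6), 10 in Hoxb (chromosome 11), 9 in Hoxc (chromosome 15) and 9 in Hoxd (chromosome 2). A summit, the point of highest signal within a called ATAC peak, was counted for a gene when it lay in the RefSeq gene body or within 5 kb of it. Neighbouring windows overlap, so a summit could count for several genes, while the count of a cluster took each summit once. The members were set by name and not by a measured value, though earlier results of these data were known by then.

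There were 7 groups of 3 Omni-ATAC libraries each, 21 in all. Granule neuron progenitors (GNP) at postnatal day 7 and hyperplasia at day 28 came from cerebella carrying Atoh1-EGFP, a reporter of the granule lineage. Tumor cells came from dissociated cerebella with tumors, and the labels then give a sort for EGFP. The titles of the GNP libraries name Ptch1, but the labels give no genotype for GNP, hyperplasia or tumor beyond the reporter, and no age for the tumor mice. VDR, described as a medulloblastoma cell line, was untreated or given a control siRNA (siNC), siNfia or siNfib. The deposited list names of the treated VDR cells begin with sh, so the reagent is uncertain, and VDR is a single line. The labels do not say that replicates were separate animals or cultures, so p-values measure the spread between these libraries, which may be technical.

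Hox genes encode homeodomain transcription factors that give cells their position along the body axis. They are ordered along each cluster by where they act, from the head side (anterior, low numbers) to the tail side (posterior, high numbers). The cerebellum arises from rhombomere 1, in front of the hindbrain segments that express Hox genes, and in cells that do not use them the clusters are commonly held silent by Polycomb complexes on CpG-rich DNA. Anterior members are defined here as numbers 1 to 4, central as 5 to 8 and posterior as 9 to 13.

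RefSeq start-site entries (GRCm38.p6) were found for 22 of the 38 members, with 24 start sites. In the 250 bases before the start the median number of CG dinucleotides was 12.5 for the member entries and 6 for all 32851 entries. The 4 stretches below are shown because Hoxc4 holds the most recurrent VDR summits and the 3 Hoxd starts hold summits in the progenitors. The Hoxc4 start used by RefSeq here lies inside the annotated gene, chr15:103018097-103036856. Each stretch runs 5′ to 3′ up to the base before the start, on the plus strand, with CG in capitals.
Hoxc4, chr15:103034145-103034394: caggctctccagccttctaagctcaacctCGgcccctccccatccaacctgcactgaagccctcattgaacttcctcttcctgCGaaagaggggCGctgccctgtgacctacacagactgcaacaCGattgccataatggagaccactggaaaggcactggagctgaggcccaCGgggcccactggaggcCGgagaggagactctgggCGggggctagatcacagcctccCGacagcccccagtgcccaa
Hoxd9, chr2:74697513-74697762: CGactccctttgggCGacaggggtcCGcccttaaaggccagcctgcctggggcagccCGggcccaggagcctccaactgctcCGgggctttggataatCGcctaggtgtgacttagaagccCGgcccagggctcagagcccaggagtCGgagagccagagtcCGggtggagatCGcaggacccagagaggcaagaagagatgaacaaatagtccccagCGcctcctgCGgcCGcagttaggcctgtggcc
Hoxd10, chr2:74691641-74691890: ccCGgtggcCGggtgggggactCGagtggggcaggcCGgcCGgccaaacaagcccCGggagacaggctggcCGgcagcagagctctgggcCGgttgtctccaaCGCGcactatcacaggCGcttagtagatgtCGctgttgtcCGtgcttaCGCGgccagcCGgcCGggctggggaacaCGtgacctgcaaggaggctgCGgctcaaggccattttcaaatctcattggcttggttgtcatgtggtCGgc
Hoxd13, chr2:74667975-74668224: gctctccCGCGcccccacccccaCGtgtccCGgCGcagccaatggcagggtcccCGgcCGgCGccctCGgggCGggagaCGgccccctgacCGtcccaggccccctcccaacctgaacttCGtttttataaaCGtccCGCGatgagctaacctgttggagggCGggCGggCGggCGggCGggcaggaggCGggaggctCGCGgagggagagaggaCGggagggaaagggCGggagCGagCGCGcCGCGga
The stretch before Hoxc4 holds 8 CG, that before Hoxd9 holds 13, that before Hoxd10 holds 20 and that before Hoxd13 holds 31. The Hoxc4 stretch is thus nearer the count of all promoters than the Hoxd stretches are. The short NFI recognition element TTGGC, searched on both strands, occurred 0 times before Hoxc4 and Hoxd9, 2 times before Hoxd10 and 1 time before Hoxd13. It was found in 16 of the 24 member entries (66.7%) and in 41.5% of all entries, and the full site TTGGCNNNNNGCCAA was found in 0 member entries and 0.0365% of all.

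The lists held 159720 to 279584 summits. To compare libraries at equal length, the 100000 highest summits of each were used, and whole lists were also read, scaled to summits per 100000 listed. Hox summits were weak ones: in the primary groups between 5.6% and 22.5% of the summits of a cluster ranked among the 100000 highest, while those 100000 make up 38.0% to 51.2% of a primary list. In the primary groups most Hox summits are therefore seen only in whole lists. In untreated VDR 49.5% of the Hoxc and 84.6% of the Hoxb summits (11 of 13) ranked among the 100000 highest. There those 100000 make up 51.5% to 62.6% of a list, so the Hoxc share was below that of the lists. Of the 11 Hoxb summits, 6 ranked 99623 to 99629, all in untreated replicate 1. In these bulk libraries fewer cells with an open site and less signal per cell cannot be told apart. Untreated VDR stood apart from the other libraries, with scores of 3.76 to 3.97 at rank 100000 against 4.95 or more elsewhere.

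**Figure D1:**
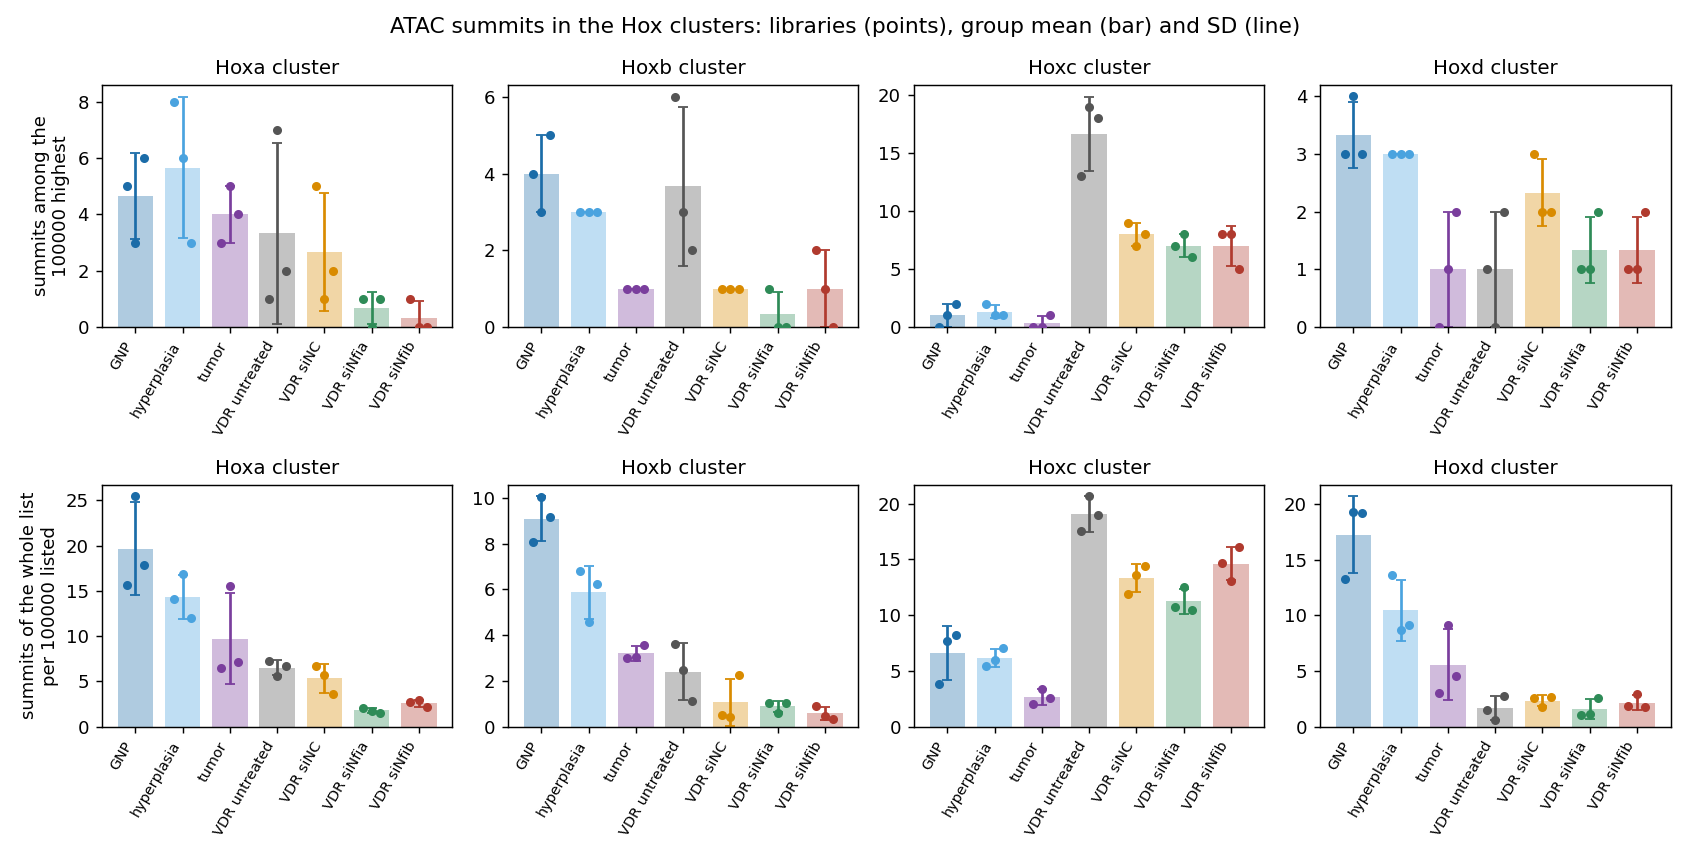
Summits in each Hox cluster (y axis) by group (x axis), among the 100000 highest of each list (upper row) and per 100000 listed (lower row). Points are libraries, bars are means and lines are SD over 3 libraries. In the upper row the 12 VDR libraries hold 5 to 19 Hoxc summits and the 9 primary libraries 0 to 2.

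The Hoxb cluster held fewer summits in tumors. Among the 100000 highest summits the 3 GNP libraries held 4, 3 and 5 Hoxb summits, the hyperplasia libraries 3 each and the tumor libraries 1 each, so tumors lay below both other groups without overlap. The difference of mean log2(count + 1) was -1.30 (SE 0.13) for tumor minus GNP, with an adjusted p of 0.003549 by limma with Benjamini-Hochberg adjustment over all features tested. For tumor minus hyperplasia the count fell by 1.00 on that scale (SE 0.13, adjusted p = 0.0267 by limma). The counts within tumor and within hyperplasia were identical. The error there thus comes from the spread of the GNP libraries in the same fit and from other genes with similar counts. The second call ended (adjusted p 0.05089 to 0.0654 by limma) when GNP replicate 1, hyperplasia replicate 1 or 2, or any of the 3 tumor replicates was left out. It also ended in unscaled whole lists (adjusted p = 0.252), with the 50000 highest (adjusted p = 0.2874) and with the 150000 highest (adjusted p = 0.2537). The first call ended with the 50000 highest summits (-1.06, adjusted p = 0.162) and with 1 summit per peak (-1.67, adjusted p = 0.1138). Hyperplasia did not pass the test against GNP (-0.30, adjusted p = 0.2908).

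Single Hoxb sites, windows of 500 bp around the summits, showed which summits were missing from the 100000 highest of tumors. A window in Hoxb3, an anterior gene of hindbrain patterning, at chr11:96311500-96311999 held a summit among the 100000 highest in 3 of 3 GNP, 2 of 3 hyperplasia and 0 of 3 tumor libraries. In the whole lists it was present in 3, 3 and 1. A window in Hoxb6 at chr11:96294452-96294951 was among the 100000 highest in 3 GNP, 3 hyperplasia and 0 tumor libraries, and in whole lists in 2 tumor libraries, so its tumor summits ranked lower. The window 444 bp from Hoxb8 at chr11:96278707-96279206 held a strong summit in all 9 primary libraries and was the 1 Hoxb summit left in each tumor library's 100000. These windows were chosen for their recurrence, after their values were seen, and were not tested.

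The other clusters had no change among the 100000 highest summits that passed the test in the primary stages. Hoxd counts were 3, 4 and 3 in GNP, 3 in each hyperplasia library and 0, 1 and 2 in tumor, and the tumor libraries lay below the other groups. The change for tumor minus GNP was -1.25 (SE 0.36, adjusted p = 0.1061 by limma), so it did not pass the test. Hoxa held 5, 3 and 6 summits in GNP, 8, 6 and 3 in hyperplasia and 3, 5 and 4 in tumor, with overlapping groups. Hoxc held 0 to 2 in every primary library and fell under the filter of a mean of 1. For single members, 0 of 8 tested were called in each comparison of the primary stages, with 0 of 8 also under an unadjusted p of 0.05. In tumor minus GNP 1 was called when any 1 tumor replicate was left out. The share of all features called was 3.58% for hyperplasia minus GNP, 4.04% for tumor minus GNP and 1.22% for tumor minus hyperplasia.

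In whole lists scaled for length all 4 clusters were lower in tumors than in GNP. Hoxa held 33, 66 and 39 summits in GNP, 31, 37 and 29 in hyperplasia and 13, 41 and 14 in tumor. Hoxb held 17, 26 and 20, then 15, 10 and 15, then 6, 8 and 7. Hoxd held 28, 50 and 42, then 30, 19 and 22, then 6, 24 and 9. The order of the group means was the same in these 3 clusters, highest in GNP and lowest in tumor. Hoxc had the fewest of the 4 in GNP, with 8, 20 and 18, and held 4, 9 and 5 in tumor. Tumor replicate 2, the longest tumor list with 263313 summits, lay above 2 GNP libraries for Hoxa, above 1 for Hoxc and above 2 hyperplasia libraries for Hoxd. Scaled for length, every tumor library lay below every GNP library in all 4 clusters, for Hoxa by 15.57 against 15.65 at the closest.

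Scaled to summits per 100000 listed, the log2(count + 1) difference for tumor minus GNP was -1.56 for Hoxd (SE 0.23, adjusted p = 9.67e-05), -1.26 for Hoxb (SE 0.15, adjusted p = 1.428e-05), -1.01 for Hoxa (SE 0.21, adjusted p = 0.00364) and -1.01 for Hoxc (SE 0.20, adjusted p = 0.00272), all by limma. For hyperplasia minus GNP, Hoxb fell by 0.56 (adjusted p = 0.0343 by limma) and the other 3 clusters did not pass. For tumor minus hyperplasia Hoxb (-0.69), Hoxc (-0.98) and Hoxd (-0.89) passed and Hoxa (-0.60, adjusted p = 0.1738) did not. Without scaling, Hoxb alone passed for tumor minus GNP (-1.45, adjusted p = 0.00998 by limma), and the other 3 had adjusted p-values of 0.0792 to 0.2125. With the 150000 highest summits of each list, a depth added after seeing the data, Hoxa (adjusted p = 0.0403) and Hoxc (-1.08, adjusted p = 0.0376) were called lower by limma. At that depth Hoxb (-1.68, adjusted p = 0.0724) and Hoxd (-1.42, adjusted p = 0.176) missed the threshold with the same direction.

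**Figure D2:**
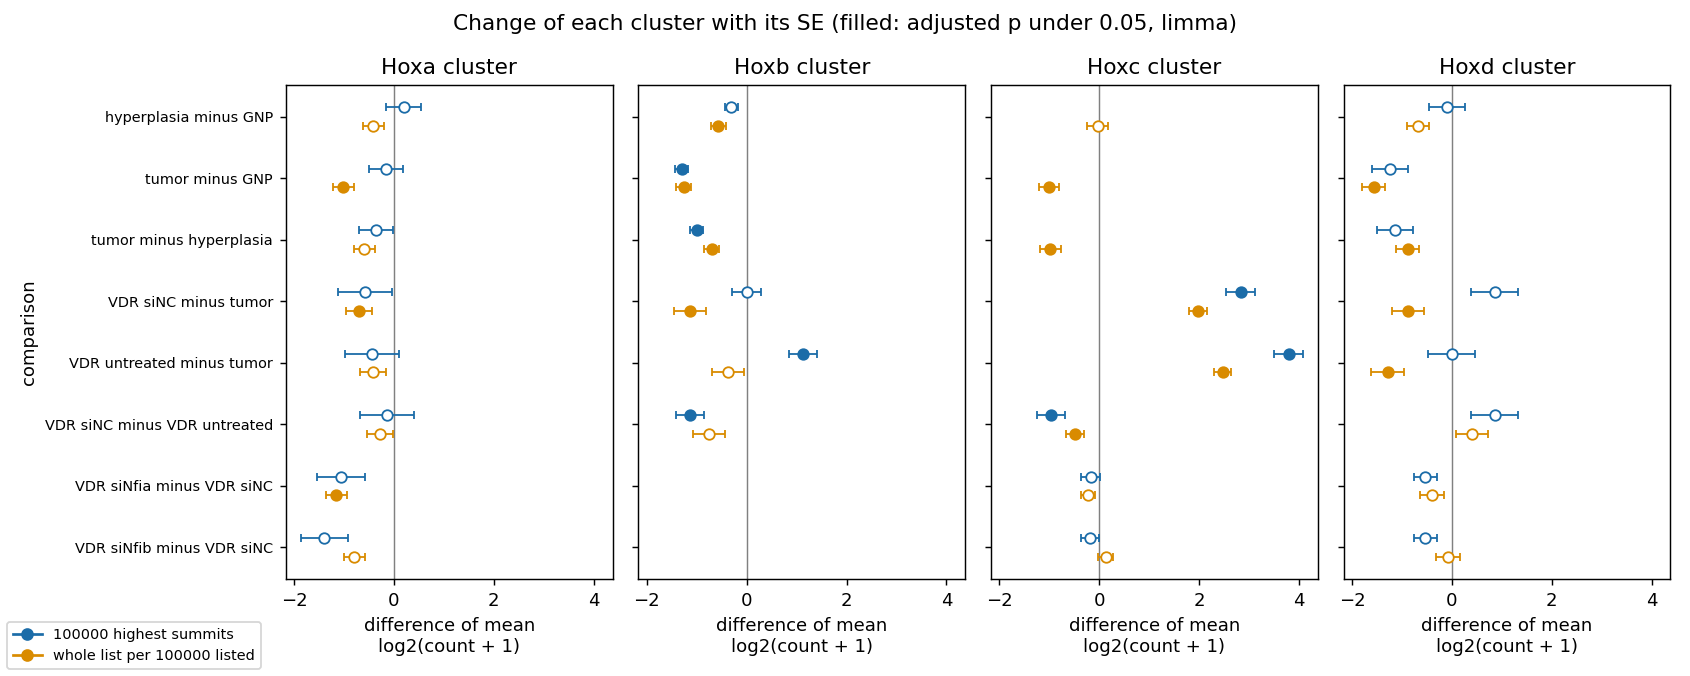
Difference of mean log2(count + 1) for each cluster (x axis) in the 8 comparisons (y axis), for the 100000 highest summits (blue) and whole lists per 100000 (orange), with SE as lines and filled points for an adjusted p under 0.05 (limma). Hoxb, Hoxd and Hoxa lie left of 0 in tumor minus GNP, and Hoxc lies at 1.98 to 3.79 in the comparisons of VDR with tumor. Points are missing where a cluster fell under the filter.

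Of 26 members tested in the scaled whole lists, 13 were called lower and 0 higher in tumor than in GNP, where 7.04% of all features were called. The median change was -0.79 over these members and -0.03 over all features. Windows of neighbours share summits, so these are not 13 separate observations, and a member with few summits could pass the filter only through a group where it is high. The count was 5 without GNP replicate 2 and 8 without tumor replicate 1. Among anterior genes, Hoxd3 held 12, 12 and 10 summits in GNP, 4, 6 and 4 in hyperplasia and 1, 5 and 0 in tumor. Its 3 groups show the order GNP above hyperplasia, with tumor overlapping hyperplasia (tumor minus GNP -1.86, adjusted p = 5.73e-05 by limma). Hoxb3 held 8, 10 and 7 in GNP, 5, 4 and 7 in hyperplasia and 1, 2 and 1 in tumor, without overlap between tumor and either group (-1.54, adjusted p = 9.188e-06 by limma). Hoxa2, the most anterior Hoxa member here and a regulator of the second branchial arch, held 8, 12 and 8 in GNP and 2, 6 and 2 in tumor.

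Of 11 central and 16 posterior members, 5 each were called, all lower. The central ones were Hoxd8 (7, 10 and 10 summits in GNP, 1, 6 and 2 in tumor), Hoxc6, Hoxa5, Hoxa6 and Hoxb6. The posterior ones, genes of the trunk and limb axis, were Hoxd9, Hoxd10, Hoxa9, Hoxa10 and Hoxa11. Their changes ran from -0.97 for Hoxd10 to -0.79 for Hoxa9. Of the anterior members Hoxa3 and Hoxc4 were tested and not called, and Hoxa4, Hoxb1, Hoxb2, Hoxb4, Hoxd1 and Hoxd4 fell under the filter.

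For hyperplasia minus GNP in scaled whole lists 2 of 26 members were called, both lower, with 4.35% of all features called. These were Hoxd3 (-0.97, adjusted p = 0.0318) and Hoxa10 (-0.84, adjusted p = 0.0338, limma), and the count was 0 without GNP replicate 2 or 3 or hyperplasia replicate 3 and 1 without hyperplasia replicate 1 or 2. For tumor minus hyperplasia 3 of 26 were called, Hoxb3, Hoxa5 and Hoxa6, all lower, with 1.74% of all features called. Leaving out 1 library moved that count between 1 and 7, with 7 without tumor replicate 2 and 1 without any other library except hyperplasia replicate 1. These comparisons share libraries with each other and are not independent.

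**Figure D3:**
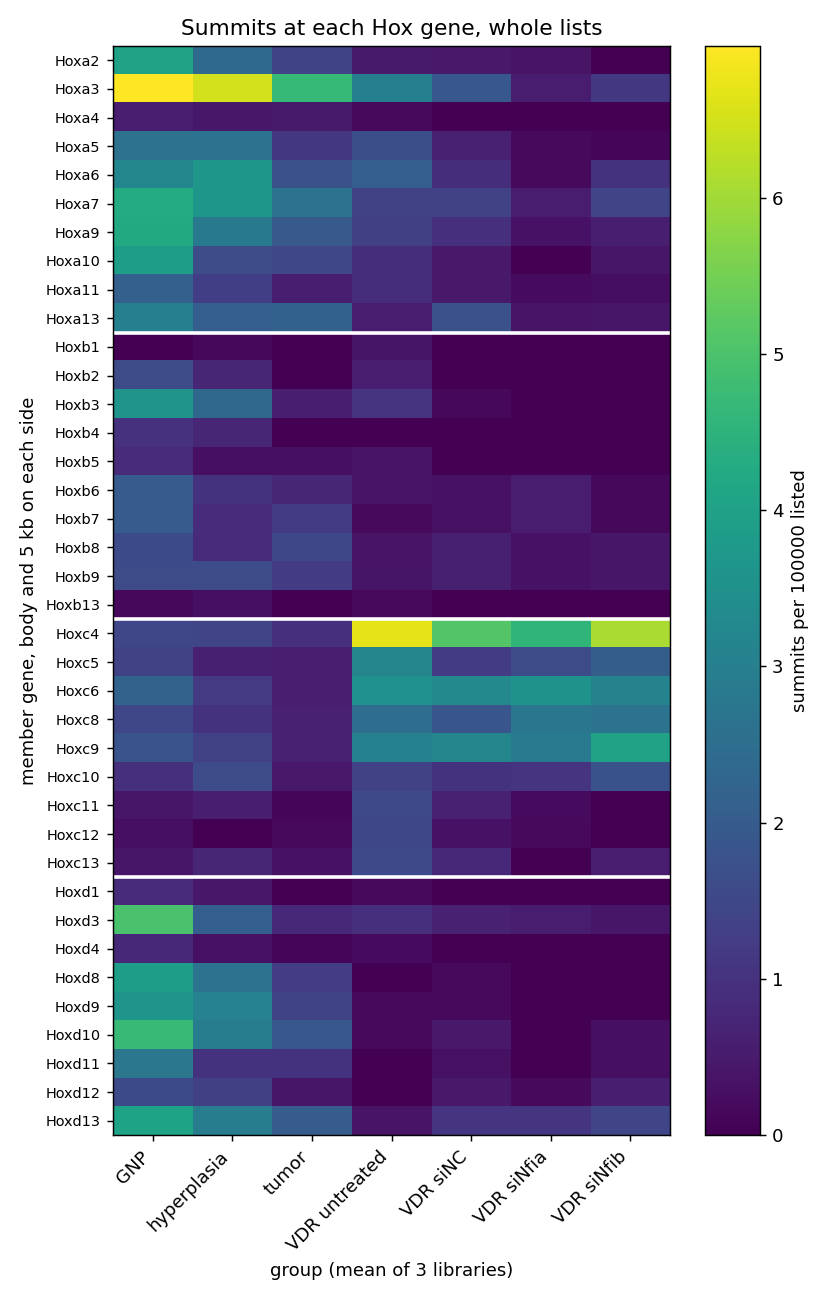
Mean summits per 100000 listed (colour) in the body and 5 kb flanks of each of the 38 members (y axis), by group (x axis, mean of 3 libraries). Hoxa3, Hoxd3 and Hoxd10 are brightest in GNP and darken towards tumor, while Hoxc4 is brightest in the VDR groups.

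Some sites kept strong summits through all primary stages. The window at chr6:52221532-52222031, 1315 bp from Hoxa9, held a summit among the 100000 highest in all 9 primary libraries and in 3 of 12 VDR libraries. The window at chr6:52211495-52211994, inside the Hoxa3 gene and within 5 kb of Hoxa7, did so in 9 primary and 2 VDR libraries. Hoxa3, Hoxa7 and Hoxa9 accordingly had the highest mean counts of the Hoxa members over the 18 libraries other than untreated VDR, at 1.17, 1.28 and 0.722, and Hoxa4 had a mean of 0. In Hoxb the same ranking gave Hoxb9, Hoxb8 and Hoxb6, with Hoxb1 among 4 members at 0. Of 86 sites in Hoxa, 38 in Hoxb, 108 in Hoxc and 57 in Hoxd, 35, 21, 43 and 27 were found in 1 library alone. In the same order, 42, 24, 14 and 42 sites were found in at least 1 primary and no VDR library. Those in at least 1 VDR and no primary library numbered 20, 10, 68 and 6. Sites in all 9 primary and no VDR libraries numbered 1, 1, 0 and 2.

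VDR cells differed from tumors most in the Hoxc cluster, which was open in all 12 VDR libraries. Among the 100000 highest summits Hoxc held 13, 19 and 18 in untreated VDR, 9, 7 and 8 with siNC, 7, 8 and 6 with siNfia and 8, 8 and 5 with siNfib, against 0, 0 and 1 in tumor. No VDR library overlapped a primary library. The change was 2.83 for siNC minus tumor (SE 0.29, adjusted p = 0.0004133) and 3.79 for untreated VDR minus tumor (SE 0.29, adjusted p = 4.565e-05), both by limma. With tumor at 0, 0 and 1, the cluster passed the filter there through the VDR libraries. In whole lists tumors held 4, 9 and 5 and siNC 23, 31 and 32, with a scaled change of 1.98 (SE 0.18, adjusted p = 1.649e-07 by limma). With a fixed score of at least 10, which keeps unequal numbers of summits, the siNC change was 1.06 (adjusted p = 0.245) and the untreated one -0.33.

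Chromosome 15, which carries Hoxc, also held more of the kept summits in VDR, 6.02% to 7.47% against 4.14% to 4.41% in the primary libraries. After each count was set against the total of its chromosome, the Hoxc change for siNC minus tumor was 2.23 (adjusted p = 0.0001426 by limma) and that for untreated VDR was 3.08. The 100 kb beyond Hoxc4 also held more kept summits, a mean of 18.7 ± 0.58 (SD, n = 3) with siNC against 8.67 ± 1.53 in tumor. Within the cluster the means were 6.68 ± 0.84 per 100 kb with siNC and 0.28 ± 0.48 in tumor, so the ratio was larger inside than beyond it. The 100 kb on the Hoxc13 side held 0 kept summits in every library of these groups. Copy number was not analysed here, and its part in the result was not tested.

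At the level of genes 2 of 7 members tested were called for siNC minus tumor, both higher, where 18.7% of all features were called. Hoxc4, the most anterior member of its cluster, held 5, 4 and 6 summits with siNC and 0 in each tumor library (2.57, SE 0.23, adjusted p = 0.0001833 by limma). Hoxc6, a central gene of thoracic identity, held 2, 2 and 1 against 0 (1.39, adjusted p = 0.0201 by limma). The tumor libraries at 0 make these values depend on the added 1, and they are no measure of fold. Both genes passed the filter only through VDR libraries, so their direction was fixed by the filter, and Hoxc6 passed only with the untreated libraries. The count was 1 without tumor replicate 1 or 2 or siNC replicate 1 or 2, and the fit without the untreated VDR libraries, added after seeing the data, gave 1.

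For untreated VDR minus tumor 4 of 7 members were called, all higher and all in Hoxc, against 41.7% of all features. The tumor libraries here are those of the siNC comparison. They were Hoxc4 (7, 4 and 6 summits), Hoxc5 (3 in each), Hoxc6 (1, 3 and 4) and Hoxc9 (3 in each). Each had 0 summits in every tumor library except Hoxc9, with 1 in tumor replicate 3. The fitted difference was 2.71 for Hoxc4 and 2.00 for Hoxc5. Hoxc5, at 0 in every tumor and siNC library, passed the filter only through the untreated libraries, so its direction was fixed by the filter. Hoxc4, Hoxc6 and Hoxc9 likewise passed only through VDR libraries. With so many features called, a member count of this size is not read as a result about the members.

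In scaled whole lists 12 members passed the filter in VDR against tumor, where 7 had passed among the 100000 highest. More of all features were also called, so the counts that follow are not read as a result about the members. For siNC minus tumor 5 of 12 tested were called, Hoxc4, Hoxc6, Hoxc8 and Hoxc9 higher and Hoxa3 lower, where 31.1% of all features were called. The count was 2 without siNC replicate 2 and 3 without siNC replicate 3. For untreated VDR minus tumor 7 of 12 were called, Hoxc4, Hoxc5, Hoxc6, Hoxc8 and Hoxc9 higher and Hoxd13 and Hoxa13 lower, against 46% of all features. Hoxc10, Hoxc11, Hoxc12 and Hoxc13 fell under the filter and were not tested in these comparisons.

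**Figure D4:**
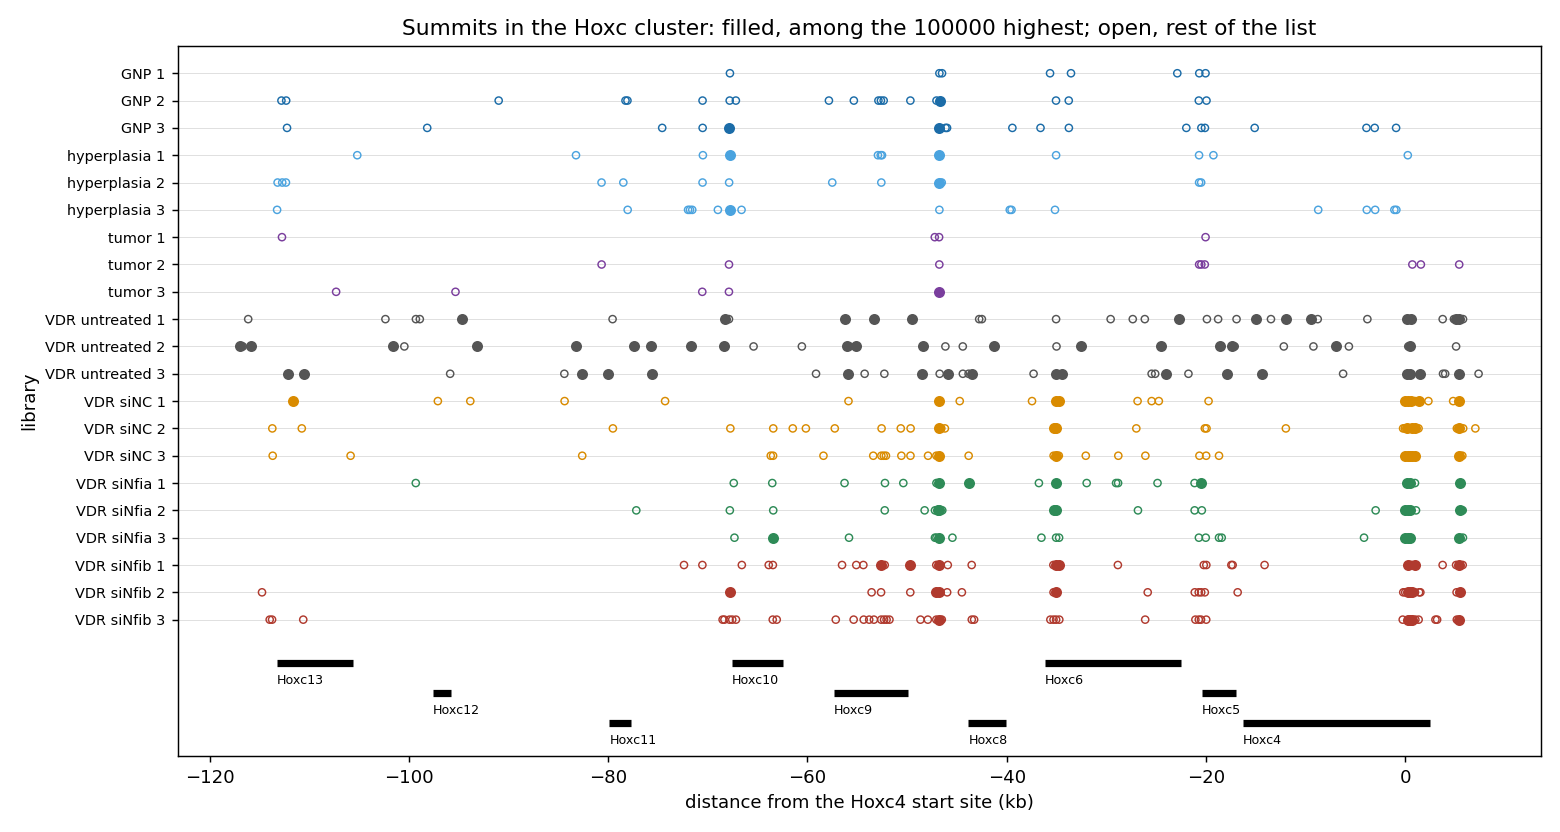
Hoxc summits by distance from the Hoxc4 start site in kb (x axis) in each of the 21 libraries (y axis), filled where among the 100000 highest and open otherwise, with gene bodies as black bars. The 12 VDR libraries share summits at the start site, and untreated VDR has filled summits spread over the posterior genes.

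Some of the Hoxc summits recurred in nearly all VDR libraries. After the Hoxc4 start site, whose upstream bases are printed above, every VDR library had a summit 192 to 292 bp downstream and another 450 to 527 bp downstream. These ranked among the 100000 highest in 11 and 10 of the 12 libraries, with a best rank of 19437, and were found in 1 and 0 of 9 primary libraries. The limits used to collect them, 150 to 300 bp and 400 to 550 bp, were set after seeing the positions. A further window at chr15:103039572-103040071, 2966 bp beyond the Hoxc4 gene, held a strong summit in 11 of 12 VDR and 0 of 9 primary libraries, with a weak one in 1 tumor library. In Hoxc6 the window at chr15:102999101-102999600 held a summit in all 12 VDR libraries, strong in 8, and a weak one in 3 primary libraries.

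A different site was shared with the primary cells. The window at chr15:102987346-102987845, between Hoxc9 and Hoxc8, held a summit in all 9 primary and 10 of 12 VDR libraries, and was strong in 5 and 9 of them. With each summit given once to its nearest member, siNC libraries held 8, 12 and 7 anterior Hoxc summits in whole lists and tumor 0, 3 and 0, without overlap. Central counts were 9, 8 and 11 against 2, 4 and 1, and posterior counts 6, 11 and 14 against 2, 2 and 4. In all 3 classes every siNC library lay above every tumor library, but among the 100000 highest the posterior class held 1, 0 and 0 with siNC and 0 in each tumor library. In untreated VDR that class held 5, 12 and 7, above every siRNA-treated library.

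Between the 2 control states of the line, siNC held fewer Hoxc summits than untreated cells (-0.96, SE 0.29, adjusted p = 0.0298 by limma) and fewer Hoxb summits (-1.13, adjusted p = 0.0166). The 6 Hoxb summits of untreated replicate 1 ranked 99623 to 99629, just inside the cutoff. Of 7 members tested 2 were called, Hoxc5 (0 against 3 in each library) and Hoxc9 (1 against 3), where 34.4% of all features were called. Hoxc5 passed the filter only through the untreated libraries, so its direction was fixed by the filter. In scaled whole lists 1 of 12, Hoxc5, was called, against 37.9% of features. In scaled whole lists the Hoxc change was -0.49 (adjusted p = 0.0351 by limma), in unscaled ones -0.24 (adjusted p = 0.4658), and with a score of at least 10 it turned to 1.39 (adjusted p = 0.0592). The Hoxc call ended (adjusted p up to 0.09586) without untreated replicate 2 or 3 or any 1 siNC replicate, and the Hoxb call ended without siNC replicate 3 (adjusted p = 0.05186) and in scaled whole lists (-0.76, adjusted p = 0.0702). Leaving out untreated replicate 1 gave 2 members in whole lists and leaving out siNC replicate 3 gave 3. The weak untreated lists move with these results, and their part was not tested.

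The Hoxd cluster showed the reverse in VDR, with few summits in any library. Whole lists held 3, 1 and 5 Hoxd summits in untreated VDR, 5, 4 and 6 with siNC, 2, 2 and 5 with siNfia and 4, 6 and 5 with siNfib, against 6, 24 and 9 in tumor and 28, 50 and 42 in GNP. With each summit given to its nearest member, 0 belonged to Hoxd8, the central Hoxd gene, in any of the 12 VDR libraries, against 6, 8 and 9 in GNP. The scaled change for siNC minus tumor was -0.88 (adjusted p = 0.0474 by limma) and for untreated VDR minus tumor -1.28 (adjusted p = 0.00337). Among the 100000 highest the siNC change had the opposite sign and did not pass (0.86, adjusted p = 0.243), as siNC held 3, 2 and 2 and tumor 0, 1 and 2.

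**Figure D5:**
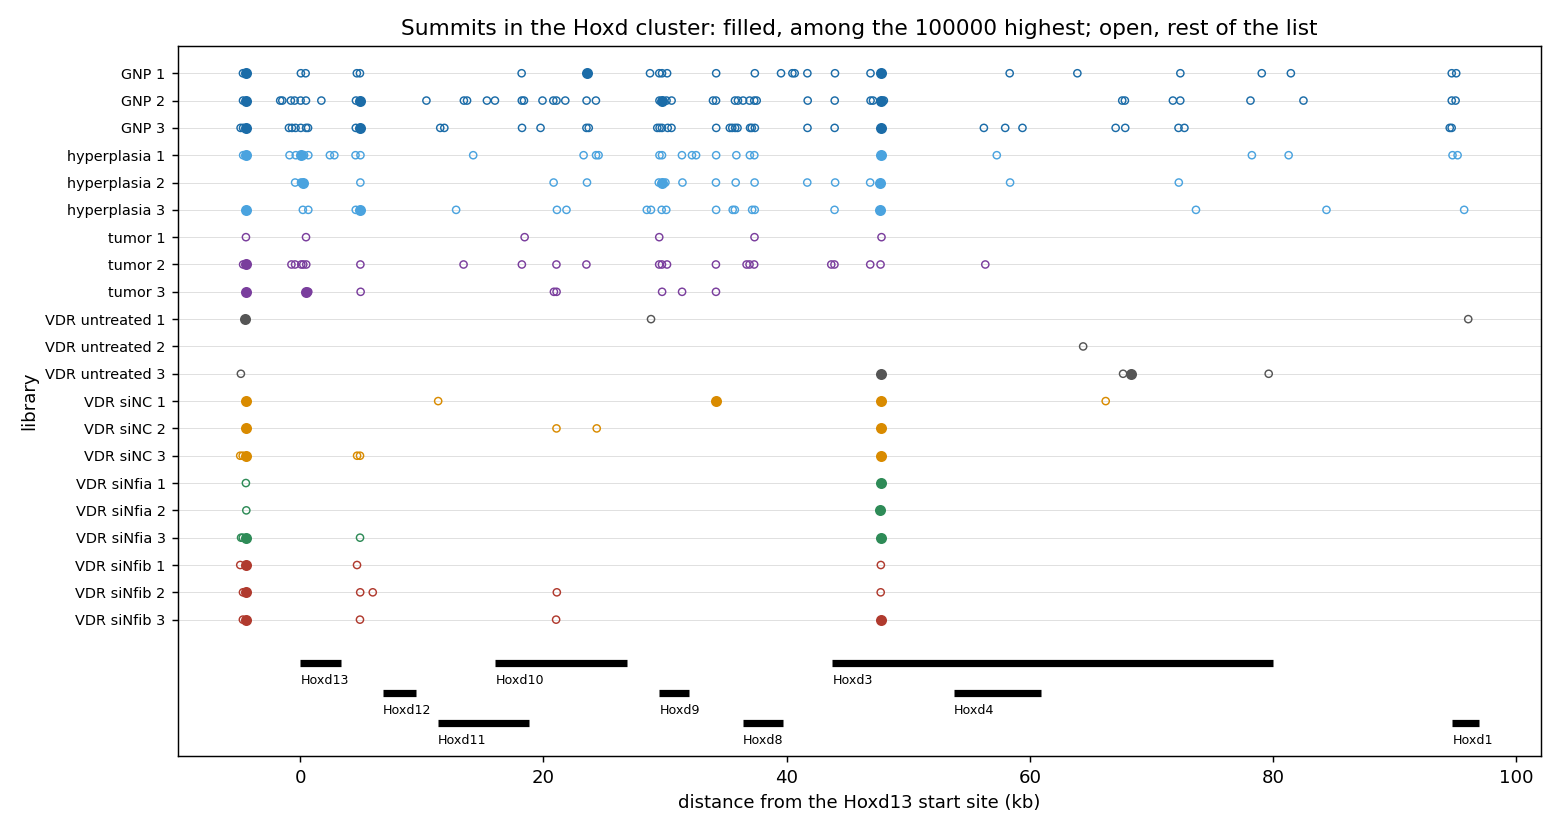
Hoxd summits by distance from the Hoxd13 start site in kb (x axis) in each of the 21 libraries (y axis), filled where among the 100000 highest and open otherwise, with gene bodies as black bars. GNP libraries have summits along the whole cluster and the filled VDR summits fall mostly at 2 places, before Hoxd13 and in Hoxd3.

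The strong sites were in part the same as in the primary cells. The window at chr2:74663499-74663998, 4476 bp from Hoxd13, held a summit in 8 of 9 primary and 10 of 12 VDR libraries, strong in 7 and 8. The window at chr2:74715744-74716243 in Hoxd3 held one in 8 primary and 10 VDR libraries, strong in 6 and 8, but in 0 of 3 tumor libraries among the 100000 highest. In contrast, windows at the Hoxd9 start (chr2:74697701-74698200) and in Hoxd13 (chr2:74668448-74668947) held a summit in all 9 primary libraries and 0 of 12 VDR libraries. The start of Hoxd10, whose upstream bases are shown with those of Hoxd9 and Hoxd13, had a summit between 250 bp before and 50 bp after it in 3 of 3 GNP, 1 of 3 hyperplasia, 1 of 3 tumor and 0 VDR libraries. Of the single Hoxd members, Hoxd13 and Hoxd3 had the highest mean counts among the 100000 highest (1.11 and 0.722), followed by Hoxd9, Hoxd10 and Hoxd12 at 0.167 each, and Hoxd1 and Hoxd4 had 0.

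Hoxa and Hoxb were also sparse in VDR whole lists. Hoxa held 13, 13 and 8 summits and Hoxb 1, 1 and 5 with siNC. The scaled change from tumor was -0.70 for Hoxa (adjusted p = 0.0482) and -1.13 for Hoxb (adjusted p = 0.0114, limma). Hoxb4 had 0 summits in every VDR list. Untreated VDR had more Hoxb summits than tumor among the 100000 highest (6, 3 and 2 against 1 in each, 1.13, adjusted p = 0.0128 by limma). The sign turned in scaled whole lists (-0.37, adjusted p = 0.360). In untreated replicate 1 all 6 ranked between 99623 and 99629, just inside the cutoff. Equal scores were ordered by chromosome and position, and the part of that order in the call was not tested.

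Knockdown of Nfia or Nfib, both NFI transcription factors, was compared with siNC in the line. Summit counts do not measure the transcript, so the lists cannot show whether the knockdown worked: Nfia held 70, 68 and 69 kept summits with siNfia and 68, 73 and 72 with siNC, and Nfib held 99, 89 and 86 with siNfib and 108, 100 and 77 with siNC. Hoxc, the open cluster, held 7, 8 and 6 with siNfia, 8, 8 and 5 with siNfib and 9, 7 and 8 with siNC, and the groups overlapped. Its change was -0.17 (SE 0.18, adjusted p = 0.791) with siNfia and -0.19 (SE 0.18, adjusted p = 0.729, limma) with siNfib. Among members, 0 of 4 were called with siNfia and 0 of 4 with siNfib by limma, and at an unadjusted p under 0.05 there were 0 and 1. All features were called at 0.014% and 0.643%. In scaled whole lists 0 of 9 were called in either, with 2 and 0 under an unadjusted p of 0.05, where 0.0753% and 0.39% of features were called.

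In scaled whole lists the Hoxa cluster was the 1 Hox cluster called in a knockdown. Whole lists held 13, 13 and 8 Hoxa summits with siNC, 4, 3 and 3 with siNfia and 6 in each library with siNfib, so both knockdowns lay below siNC. Scaled, the change was -1.15 with siNfia (SE 0.21, adjusted p = 0.0227 by limma) and -0.79 with siNfib (SE 0.21, adjusted p = 0.094), and the difference between the knockdowns was not tested. The siNfia call was absent among the 100000 highest summits (-1.06, adjusted p = 0.509), among the 150000 highest (-1.81, adjusted p = 0.349), without the filter on low counts (adjusted p = 0.0584) and in unscaled whole lists (-1.49, adjusted p = 0.0755). The siNfia lists were also shorter, 167964 to 195418 summits against 192817 to 228691 with siNC, and the part of that in the result was not tested.

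Genes that act with or upstream of Hox genes were read from lists chosen for their roles. Of 9 Hox cofactors of the TALE homeobox family, Meis2 fell (5, 8 and 3 kept summits in GNP, 1, 0 and 0 in tumor, -2.25, adjusted p = 0.0199) and Pknox2 rose (0.60, adjusted p = 0.00711, limma) for tumor minus GNP. For siNC minus tumor 0 of 8 cofactors tested were called by limma, with 2 under an unadjusted p of 0.05. In scaled whole lists 3 of 9 were called higher and 1 lower, where 31.1% of all features were called. For untreated VDR minus tumor 3 of 8 were called higher and 3 lower, against 41.7% of all features. Of 7 upstream regulators tested for siNC minus tumor, 1 was called, against 18.7% of all features. Rarg, a retinoic acid receptor gene, rose from 2, 1 and 2 to 11, 9 and 5 (1.77, adjusted p = 0.00317 by limma). Rarg is on chromosome 15 as well, as is Smug1, the flanking gene beyond Hoxc4 (1.00, adjusted p = 0.00859).

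Factors of rhombomere 1 were read in the same way. Of 9 tested, 4 were lower and 1 higher for siNC minus tumor, where 18.7% of all features were called. For untreated VDR minus tumor 2 were lower and 3 higher, where 41.7% of all features were called. En1, which patterns the midbrain and cerebellum, held 6, 8 and 8 kept summits in tumor and 0 in every siRNA-treated VDR library, but 15, 19 and 10 in untreated VDR. En2 held 13, 10 and 11 in tumor and 4, 2 and 3 with siNC (-1.65, adjusted p = 0.0018 by limma), Irx2 and Lmx1b were also lower and Pax5 was higher. Of 18 Polycomb subunit genes and 7 trithorax and demethylase genes, 0 were called by limma for tumor minus GNP, with 5 and 1 under an unadjusted p of 0.05, and 0 for siNC minus tumor, with 4 and 1. For untreated VDR minus tumor 2 Polycomb genes were called higher and 4 lower, and 1 trithorax or demethylase gene each way. In scaled whole lists 3 Polycomb genes and 1 trithorax or demethylase gene were called higher and 0 lower for siNC minus tumor. There 31.1% of all features were called. Skap2, beside Hoxa, was lower in tumor than in GNP (-1.26, adjusted p = 0.0143 by limma).

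Markers of the cell types were read beside these results. Atoh1, the gene that defines the granule lineage, held 9 to 25 kept summits in every library. The 12 granule progenitor genes summed to 225 to 256 kept summits in GNP, 185 to 220 in hyperplasia, 188 to 211 in tumor, 198 to 235 with siNC and 399 to 452 in untreated VDR. Most of the untreated sum was Gli2, with a mean of 367.7 there, 85.67 with siNC and 47.33 in tumor. Among the 12 genes Neurod1 was lower in tumor than in GNP (-0.37, adjusted p = 0.0249 by limma). For siNC minus tumor Neurod1, Pax6 and Barhl2 were lower and Gli2 higher. Of 11 tested, 9 were lower and 1, Gli2, higher in untreated VDR than in tumor. Beside this count and those below, 18.7% of all features were called for siNC minus tumor and 41.7% for untreated VDR minus tumor. Oligodendrocyte genes summed to 32 to 35 in tumor, 15 to 16 with siNC and 14 to 26 in untreated VDR. Olig1 and Olig2 were lower than in tumor in both VDR groups by limma. Of 4 oligodendrocyte genes tested, 2 were called lower and 0 higher with siNC, and 3 lower and 1 higher in untreated VDR. Fibroblast genes, a cell type that uses Hox genes in the body, summed to 27 to 36 in tumor and 19 to 22 with siNC, with Dcn at 0 in both and Twist1 at 0 with siNC. In untreated VDR they summed to 18 to 21. Of 3 fibroblast genes tested there against tumor, 1 was called lower and 1, Col1a1, higher (7 against a mean of 1.67, adjusted p = 0.00182 by limma). For siNC minus tumor 1 of 3 was called lower and 0 higher. Microglial genes summed to 6 to 7 in GNP and 7 to 8 in tumor, with Cx3cr1 at 0 in tumor, and Purkinje and interneuron genes to 24 to 29 in GNP and 31 to 41 in tumor. P2ry12 and Foxp2 were higher, and Gad1 and Pax2 lower, in tumor than in GNP by limma. Their part in the results was not tested.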

How the data were processed

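The deposited files are 1 list of peak summits for each of 21 libraries, with a score that the authors' peak caller gives as −log10 of a p or q value; the sources used here leave unsaid which of these it is. The submitters' processing notes name Bowtie2, Picard, MACS2 and mm10; whether reads were shifted or duplicates dropped, and at which threshold peaks were called, is not given there. Read depth is unknown, so no counting intervals are given, and the score served only to rank summits within a list.

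Summits on mm10 (coordinates 1-based) were counted per protein-coding RefSeq gene (GRCm38.p6, the mm10 assembly) in its body or within 5 kb, from the 100000 highest of each list, and 4 rows held the joined windows of the Hox clusters. Log2(count + 1) was fitted with limma 3.58.1 (R 4.3.3), trended empirical Bayes variance, features with a mean of at least 1, in 3 fits of 9 libraries each (primary stages; line and tumor; NFI knockdown), giving 8 comparisons. A call is a Benjamini-Hochberg adjusted p under 0.05 over all features of the fit. The procedure was tested on simulated data. Alternatives were whole lists, whole lists scaled to 100000, the 50000 highest, a score of at least 10, 1 summit per peak, gene bodies alone, a 10 kb flank, other filters and pseudocounts, chromosome totals, 1 fit of all libraries, a replicate block and each library left out. The 150000 highest, unfiltered scaled lists, scaled lists with each library left out and the fit without untreated VDR were added after seeing the data. Sites are 500 bp windows placed by rank. Named genes are those called, the 3 members with the highest mean count per cluster and the lowest, and at most 4 related genes per direction. Members and lists were chosen with earlier results of these data known. Exon structure was not used here. The values of 1 marker gene are not reported here.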

Additional observations from a re-analysis of the deposited data

How the results depend on the processing

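Among changes of the clusters, 508 values under an alternative kept direction and side of the threshold, 34 lost the call, 20 gained one and 41 turned sign. The cause was not tested for any of them. Members tested changed with the setting, from 8 to 26 in scaled whole lists for the primary stages and from 7 to 12 for line and tumor. The share of all features called rose there too, from 4.04% to 7.04% for tumor minus GNP. It rose from 18.7% to 31.1% for siNC minus tumor and from 41.7% to 46% for untreated VDR minus tumor. A higher member count below is thus not read as a stronger result. For hyperplasia minus GNP 0 members were called, against 2 in scaled whole lists, 1 with a score of at least 10 and 1 with 1 summit per peak. For tumor minus GNP the count was 0, against 2 in whole lists, 13 scaled, 2 by score, 2 with 1 summit per peak, 3 with a 10 kb flank, 4 without a filter, 4 among the 150000 highest and 15 scaled without a filter. For tumor minus hyperplasia it was 0, against 3 scaled, 2 with the 10 kb flank, 3 without a filter and 1 scaled without a filter. For siNC minus tumor it was 2, against 7 in whole lists, 5 scaled, 6 scaled without a filter, and 1 each with the 50000 highest, by score, with a filter at a mean of 3, with all 21 libraries in 1 fit and without untreated VDR. For untreated VDR minus tumor it was 4, against 18, 7 scaled, 17 scaled without a filter, 2 in gene bodies alone, 7 with the 10 kb flank, and 1 each with the 50000 highest, by score and with the filter at 3. For siNC minus untreated VDR it was 2, against 5 with the 10 kb flank, 1 each scaled, by score, with 1 summit per peak and in 1 fit, and 0 each in whole lists, with the 50000 highest, in bodies alone and with the filter at 3. Leaving out 1 library gave 0 to 1 for tumor minus GNP, 1 to 2 for siNC minus tumor and 1 to 2 for siNC minus untreated. In scaled whole lists it gave 0 to 2, 5 to 17 and 1 to 7 for the primary comparisons in the order above, 2 to 6 for siNC minus tumor and 1 to 3 for siNC minus untreated.

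The cluster changes that turned sign are given by comparison. Hoxa in hyperplasia minus GNP (0.20) was -0.44 in whole lists, -0.41 scaled with or without a filter, -0.53 with the 50000 highest, -0.87 by score, -0.18 with 1 summit per peak and -0.060 to 0.52 with 1 library left out. Hoxd there (-0.11) was 0.14 in bodies alone, and Hoxa in tumor minus GNP ranged from -0.39 to 0.0098 with 1 library left out. For siNC minus tumor, Hoxa was 0.074 among the 150000 highest, and Hoxd (0.86) was -1.02 in whole lists, -0.88 scaled with or without a filter, -0.58 by score, -0.28 with 1 summit per peak and -0.44 among the 150000. For untreated minus tumor, Hoxa was 0.53 in bodies alone and 0.40 among the 150000, Hoxb (1.13) was -0.69 in whole lists and -0.37 scaled with or without a filter, and Hoxc was -0.33 by score. For siNC minus untreated, Hoxa (-0.14) was 0.86 by score, 0.78 with 1 summit per peak, 0.074 with the 10 kb flank, 0.045 by chromosome totals and -0.57 to 0.43 with 1 library left out, and Hoxc was 1.39 by score. By score Hoxc was 0.67 with siNfia and 1.43 with siNfib. With siNfib Hoxc was also 0.25 in whole lists, 0.13 scaled with or without a filter, 0.11 with 1 summit per peak and -0.29 to 0.0060 with 1 library left out. Hoxd with siNfib was 0.14 by score and with the 10 kb flank, 0.088 with 1 summit per peak and 0.33 among the 150000.

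No label says that replicate numbers pair the samples. Over the 3 fits same-numbered libraries of different groups correlated at -0.042 to 0.063 and differently numbered ones at -0.073 to 0.089. In the NFI knockdown fit the ranges were 0.008 to 0.052 and -0.047 to 0.024, and pairing was not tested. With a replicate block the member counts were 0, 0, 0, 2, 4, 2, 0 and 0 in the 8 comparisons, and Hoxb in tumor minus hyperplasia lost its call (adjusted p = 0.0936 by limma); no other called cluster change was lost.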
